A study of Oryza sativa with 3 samples.

Results

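The OsNAR2.1 RNAi line was compared with the OsNAR2.1 overexpression line Ov199 by the reads of known rice miRNA precursors, with 1 small RNA library per line. OsNAR2.1 is the partner protein of the high-affinity nitrate transporters of rice, and the comparison sets the line in which it was suppressed against the line in which it was overexpressed. The background of all lines was the japonica rice cultivar Nipponbare, whose non-transgenic plants are called NP. Ov199 carried the OsNAR2.1 open reading frame behind a ubiquitin promoter (pUbi), and its name stands for 1 transgenic line. RNAi was 1 line with an OsNAR2.1 RNAi construct, and its labels also carry the tag Ni, which is not explained. Each library was made from a pool of RNA from the leaves, flowers and stems of blooming plants, so tissues cannot be told apart, and fewer cells of a type and less RNA per cell cannot be told apart either. The members were the known precursors (osa-MIR names) with 20 or more reads in either library, which were 220 of the 493 known precursors with a read in RNAi or Ov199 and of the 516 with a read in any of the 3 libraries.

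Plant miRNAs are short RNAs cut as a duplex from 1 hairpin precursor, and either strand of the duplex can be loaded into an Argonaute protein and guide the cleavage or repression of mRNAs with a nearly complementary site. A precursor therefore has products from its 5′ arm and from its 3′ arm. Several miRNA families respond to mineral nutrition: miR399 and miR827 to phosphate, miR395 to sulfate, and miR397, miR398, miR408 and miR528, known together as copper miRNAs, to copper. The miR169 family targets NF-YA transcription factors and has been linked to nitrogen supply in several plants. These roles are background and were not measured here.

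A normalized count was the number of reads per 1000000 aligned reads of the library, with each distinct sequence counted once per precursor or family. The ratio was the normalized count of RNAi divided by that of Ov199, and its 95% interval is exact and covers counting error only. The files held 62724 aligned reads for RNAi, 94154 for Ov199 and 49341 for NP, so that 1 read was worth 15.9, 10.6 and 20.3 normalized counts. A count of 0 allows up to 3 reads, which are 47.8 normalized counts in RNAi and 31.9 in Ov199. The reads of a feature and all the remaining reads of both libraries entered a two-sided Fisher's exact test, and p-values were adjusted by the Benjamini-Hochberg method over all features with a read in either. A feature was called higher or lower where the adjusted p was under 0.05, the ratio was at least 2 or at most 0.5, and either library had 20 reads. The test compares 2 libraries and not 2 lines, because no spread between plants could be measured. The mRNA of OsNAR2.1 is not read by such libraries, so the labels could not be checked against it. The inflorescence markers fixed for the pooled tissue, the phasiRNA triggers miR2118 and miR2275, summed to 1116 normalized counts in RNAi, 1041 in Ov199 and 1054 in NP, and none of their 3 kept precursors was called, although all 3 had ratios under 1 (0.600 to 0.771). Over all 220 precursors, 14.5% were called. Known precursors took 79.7% of the aligned reads in RNAi, 73.6% in Ov199 and 72.2% in NP, and the other reads lay only at precursors predicted by the authors.

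Products of the main precursors called higher in RNAi are given first, as the most abundant exact product of each precursor, 5′ to 3′ as DNA letters, with bases 2 to 8 (the seed) in capitals. The files place them on the precursor and do not mark the annotated mature miRNA, so abundance alone chose those shown, and genome coordinates were not used here. The products of MIR397a and MIR397b share a seed. MIR408 is shown with 2 products that are shifted by 1 base and therefore have different seeds, and so is MIR399d.
MIR397b: tTGAGTGCagcgttgatgaacc
MIR397a: tTGAGTGCagcgttgatgaac
MIR398b: gGGGCGAGctgggaacacacg
MIR408, first product: cTGCACTGcctcttccctggc
MIR408, second product: tGCACTGCctcttccctggct
MIR528: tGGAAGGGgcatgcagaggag
MIR399d and MIR399j: cTGCCAAAggagagttgccct
MIR399d, second product: tGCCAAAGgagagttgccctg
MIR1882e: gAAATGATcttggacgtaatctag
MIR1881: aATGTTATtgtagcgtggtggtgt

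Products of the main precursors called lower in RNAi are given in the same form. For MIR1883a the most abundant product was not called itself (14 reads in RNAi, 41 in Ov199, ratio 0.513), so its most read called product is shown instead. The products of MIR169g to MIR169m share 1 seed, while those shown for MIR169f and the other arm of MIR169i do not have it. The product of MIR169i and MIR169k differs from that of the other 5 precursors by C19T, counted from 1 at the 5′ end, with the base of the other 5 first. MIR169a is shown as the abundant member that was not called.
MIR169g, MIR169h, MIR169j, MIR169l and MIR169m: gGCAGTCTccttggctagc
MIR169i and MIR169k: gGCAGTCTccttggctagt
MIR169i, other arm: tGGTGATAagggtgtagctctgg
MIR169f: tGAGGACAagagctgattcgg
MIR169a: aTCGGAGGccatggtgcagcc
MIR530: tGCATTTGcacctgcacctac
MIR1425: tAGGATTCaatccttgctgct
MIR1883a: tGTGACGGgccgagaatggaaccc
MIR827: tTAGATGAccatcagcaaaca
MIR3980a and MIR3980b: aTCGACGGcctcagtcagggg

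Most known precursors had similar levels in the 2 libraries. Of the 220, 144 (65.5%) were within 1.5-fold, and the median ratio was 0.977 with quartiles of 0.721 and 1.18. The calls numbered 32, of which 14 were higher and 18 lower in RNAi, and these are 6.49% of the 493 precursors tested and 14.5% of the 220 (6.36% higher and 8.18% lower). Their adjusted p ranged from 3.99e-84 to 0.047 by Fisher's exact test. An adjusted p under 0.05 without the fold was found for 72 precursors (32.7%), of which 35 were higher. Because family members share reads, the 32 called precursors were joined into 23 groups, 12 higher and 11 lower. Precursors were joined where they shared most of the reads of the less read one, so some reads can still lie in more than 1 group. The minimum of 20 reads was passed in Ov199 alone by 45 precursors, in RNAi alone by 7 and in both libraries by the rest. A precursor that passed in 1 library alone tended to differ by the rule itself. Of the calls, 8 of the 14 higher and 4 of the 18 lower had 20 reads in both. With the adapter-trimmed read totals as the scale, the calls were 12 higher and 27 lower, since that scale shifts every log2 ratio by -0.27. The balance also turned with the minimum, with 39 of 59 calls higher at 10 reads and 43 of 63 with no minimum, and exact alignments left 8 higher of 23.

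**Figure D1:**
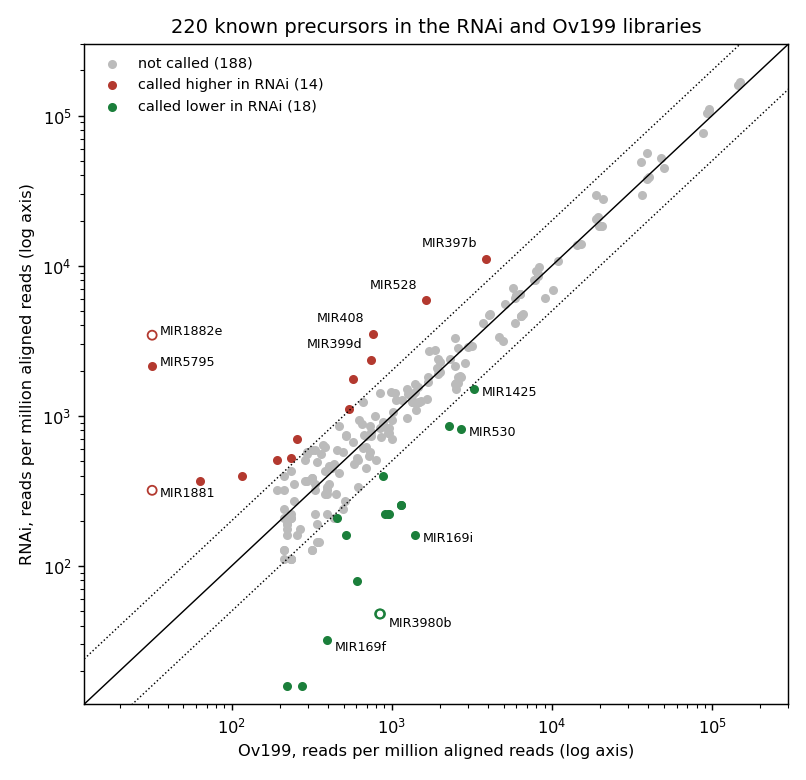
Normalized counts of the 220 known precursors in Ov199 (x axis) and RNAi (y axis), both on log axes, with 1 point per precursor, a solid line of equal level and dotted lines at 2-fold. Open symbols are precursors at 0 in 1 library, drawn at 3 reads. Red marks the 14 precursors called higher and green the 18 called lower in RNAi, and most of the 188 grey points lie close to the line.

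All copper miRNAs were higher in RNAi. Each of the 4 families and each of their 5 precursors passed the test, with precursor ratios from 2.67 to 4.61. This is to be read beside 6.36% of the 220 precursors called higher. MIR397a and MIR398b had under 20 reads in Ov199 and were kept through RNAi alone, the library where they were high. MIR397a and MIR397b also fall in the same group by their reads, so the count of 5 is a description only. The 4 families together had 20949 normalized counts in RNAi, 6383 in Ov199 and 9282 in NP. MIR397b, whose miRNA targets laccases, the copper enzymes that polymerize lignin, had 698 reads in RNAi, 363 in Ov199 and 333 in NP. In normalized counts these are 11128, 3855 and 6749, a ratio of 2.89 (interval 2.54 to 3.29). Its main product was higher as well, with 512 reads in RNAi, 278 in Ov199 and 249 in NP (2.77). MIR397a had 32 reads in RNAi, 18 in Ov199 and 12 in NP, a ratio of 2.67, and shared 94.0% of its reads with other known precursors. With exact alignments only, the ratio of MIR397a was 2.50 with an adjusted p of 0.056 by the exact test, which ended the call.

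MIR408, whose miRNA targets blue copper proteins of the plantacyanin type, had 221 reads in RNAi, 72 in Ov199 and 32 in NP. The normalized counts were 3523, 765 and 649, so the ratio was 4.61 (interval 3.52 to 6.10). Its first product had 103 reads in RNAi against 17 in Ov199 and 16 in NP, a ratio of 9.09, while the second had 37, 14 and 7 reads, a ratio of 3.97. Both products were higher in RNAi, the first by the larger factor. MIR528, a monocot miRNA that targets ascorbate oxidase, had 368 reads in RNAi, 154 in Ov199 and 89 in NP. This was a ratio of 3.59 (interval 2.96 to 4.36), and its main product had 301, 112 and 63 reads (4.03). MIR398b, whose miRNA targets copper/zinc superoxide dismutases, had 25 reads in RNAi, 11 in Ov199 and 4 in NP, a ratio of 3.41 (interval 1.62 to 7.68). This total sums both arms, whose balance was not tested at so few reads in Ov199. It need not be the level of the targeting miRNA. In reads of 20 to 24 nt alone the ratio of MIR398b was 2.54 and the call ended.

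**Figure D2:**
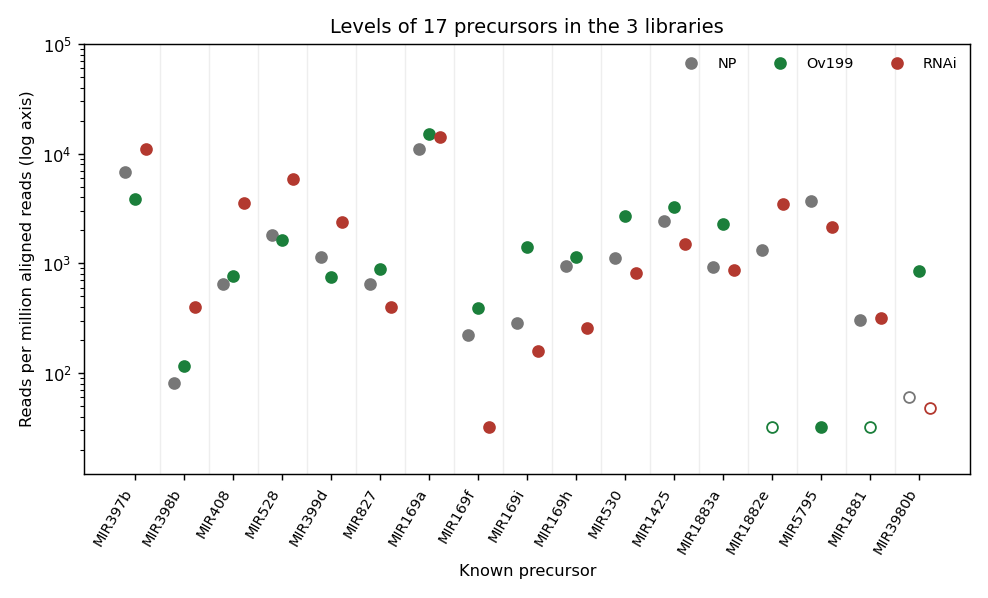
Normalized counts (log axis) of 17 known precursors in the NP (grey), Ov199 (green) and RNAi (red) libraries, 1 point per library and no error bars because each line has 1 library. Open circles mark libraries with 0 reads, drawn at 3 reads. MIR397b, MIR398b, MIR408 and MIR528 are highest in RNAi, MIR169a has 3 close values, and MIR169f, MIR169i, MIR530 and MIR3980b are highest in Ov199.

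The phosphate miRNAs did not move together, and for the sulfate family miR395 no difference was detectable at this depth. The miR399 family, which targets the ubiquitin-conjugating enzyme PHO2, had 2742 normalized counts in RNAi, 828 in Ov199 and 1459 in NP. The ratio was 3.31 (interval 2.52 to 4.38). MIR399d had 148, 70 and 56 reads in RNAi, Ov199 and NP (3.17), and MIR399j had 110, 54 and 60 (3.06), and both were called higher. The shared product shown above had 47 reads in RNAi, 14 in Ov199 and 23 in NP, a ratio of 5.04. Another product they share starts 1 base later and ends at the same base. It had 23 reads in RNAi, 26 in Ov199 and 14 in NP, a ratio of 1.33, and was not called. MIR827, whose miRNA targets SPX-MFS phosphate transporters of the vacuole, went the other way, with 25 reads in RNAi, 83 in Ov199 and 32 in NP. Its ratio was 0.452 (interval 0.277 to 0.714), and its main product had 8 reads in RNAi, 39 in Ov199 and 17 in NP.

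The miR395 family, which targets ATP sulfurylases and a sulfate transporter, had 20 reads in RNAi, 18 in Ov199 and 14 in NP. Its ratio was 1.67 with an interval of 0.838 to 3.34 and an adjusted p of 0.376 by the exact test, so no difference was detectable at this depth. No miR395 precursor reached 20 reads. The most abundant exact product in RNAi, shared by 16 precursors, had 4 reads there and 0 in Ov199 and NP. A minimum of 10 reads would call 25 further precursors higher and 2 lower, and 15 of the 25 are miR395 precursors that count the same reads.

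In the miR169 family, 8 of the 10 kept precursors were lower in RNAi, with ratios from 0.081 to 0.247, beside 8.18% of all 220 called lower. All 8 had under 20 reads in RNAi and were kept through Ov199 alone, the library where they were high. Of the 45 precursors kept in that way, 14 were called lower, and the count of 8 is a description only. They form 3 groups by their reads. The first is MIR169g, MIR169h, MIR169j, MIR169l and MIR169m, which share all their reads with other known precursors. MIR169h had 16 reads in RNAi, 108 in Ov199 and 47 in NP, or 255, 1147 and 953 normalized counts, a ratio of 0.222 (interval 0.123 to 0.378). The other members of this group had ratios of 0.224 to 0.247. The product they share had 11 reads in RNAi, 67 in Ov199 and 39 in NP, so the RNAi library stood apart from both others. This product is 19 nt long, and in reads of 20 to 24 nt alone the calls of MIR169g, MIR169j and MIR169m ended with ratios of 0.350, 0.215 and 0.233. They also ended when each read was divided over its places, with ratios of 0.237 to 0.249, because fewer than 20 reads were left to each.

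The second group is MIR169i and MIR169k. MIR169i had 10 reads in RNAi, 132 in Ov199 and 14 in NP, a ratio of 0.114 (interval 0.053 to 0.216). Here the Ov199 library stood apart. The product of its other arm had 1 read in RNAi, 50 in Ov199 and 3 in NP, a ratio of 0.030 (interval 0.00075 to 0.175). The product shared with MIR169k had 2 reads in RNAi, 26 in Ov199 and 2 in NP. MIR169k itself had 5, 57 and 10 reads (0.132). The third group is MIR169f alone, with 2 reads in RNAi, 37 in Ov199 and 11 in NP. Its ratio was 0.081 (interval 0.0095 to 0.315). Its most abundant product, at bases 16 to 36 of the precursor, had 0 reads in RNAi, 13 in Ov199 and 2 in NP. This product ends just before the one at bases 37 to 56 that carries the miR169 sequence known to guide NF-YA cleavage, and the 5′ product of MIR169i, at bases 26 to 48, likewise ends just before that sequence at bases 49 to 68. That sequence, shown because the precursor totals do not rest on it, had 1 read in RNAi, 5 in Ov199 and 1 in NP, too few for a comparison.
miR169 at MIR169f and MIR169i: tAGCCAAGgatgacttgcct

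The most abundant member did not follow. MIR169a had 881 reads in RNAi, 1426 in Ov199 and 546 in NP, or 14046, 15145 and 11066 normalized counts, a ratio of 0.927 (interval 0.852 to 1.01) with an adjusted p of 0.244 by the exact test. Its main product had 629, 1017 and 411 reads (0.928), and its variant with 1 more base at the 5′ end (gATCGGAGgccatggtgcagcc) had 24, 80 and 21 reads and was called lower (0.450). The main product of MIR169a lies at bases 27 to 47. That is mostly before the stretch that matches the miR169 sequence shown above, of which all but the start lies from base 48. The MIR169a total, and the family total that it dominates, therefore rest mainly on a product other than that miR169. MIR169c had 9 reads in RNAi, 33 in Ov199 and 13 in NP, a ratio of 0.409 with an adjusted p of 0.076, which missed the threshold in the exact test. The other 5 miR169 precursors with a read had 8 or fewer in each library. Since MIR169a holds most of the reads, the family as a whole had a ratio of 0.803 (918, 1715 and 634 reads in RNAi, Ov199 and NP) and was not called, while its lower precursors differed 4-fold or more.

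**Figure D3:**
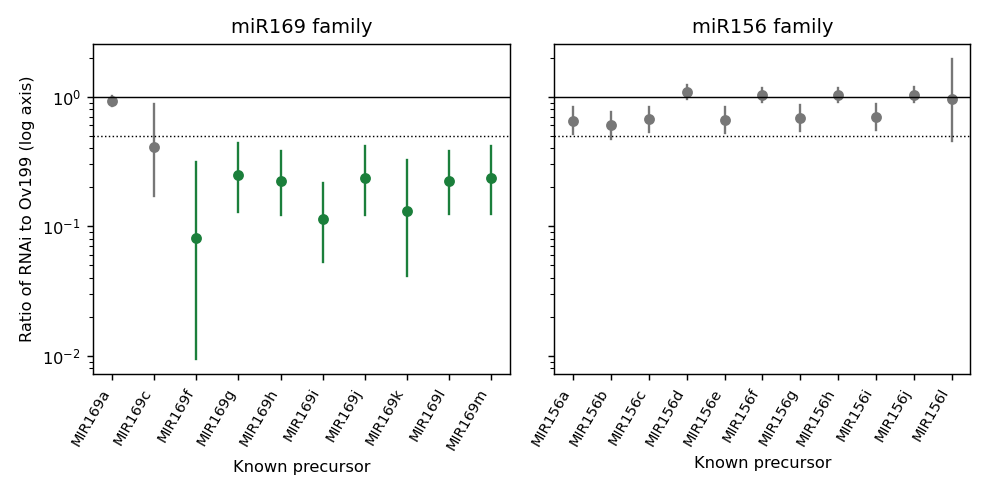
Ratio of RNAi to Ov199 (log axis) for the kept precursors of the miR169 family (left) and the miR156 family (right), with points for the ratio, bars for its exact 95% interval, a solid line at 1 and a dotted line at 0.5. The 8 green miR169 precursors lie between 0.081 and 0.247, MIR169a lies at 0.927, and the miR156 precursors lie between 0.599 and 1.08.

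Further precursors with well-populated products were lower in RNAi. MIR530, whose miRNA targets a PLUS3 domain gene in rice, had 51 reads in RNAi, 255 in Ov199 and 55 in NP. Its ratio was 0.300 (interval 0.218 to 0.407), and its main product had 28 reads in RNAi, 24 in NP and a ratio of 0.256. NP and RNAi lay close together and Ov199 above both. MIR1883a showed the same order, with 54 reads in RNAi, 213 in Ov199 and 46 in NP, a ratio of 0.381 (interval 0.277 to 0.515). Its most abundant product had 14 reads in RNAi, 41 in Ov199 and 11 in NP (0.513) and was not called. The product shown above, picked because it was called, had 3 reads in RNAi, 27 in Ov199 and 4 in NP (0.167). MIR1425, whose miRNA targets pentatricopeptide repeat genes of the fertility restorer type, had 95 reads in RNAi, 306 in Ov199 and 119 in NP. This gave 1515, 3250 and 2412 normalized counts and a ratio of 0.466 (interval 0.366 to 0.589). With exact alignments only, the ratio of MIR1425 was 0.532 and no longer past 2-fold.

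The other lower calls had few reads. MIR1428e had 1 read in RNAi, 26 in Ov199 and 4 in NP (ratio 0.058, interval 0.0014 to 0.351), and MIR1428g had 1, 21 and 2 (0.071, interval 0.0017 to 0.444). They share reads, and MIR1428g fell under 20 reads when reads were divided over places or limited to exact alignments. MIR5484 had 10 reads in RNAi, 49 in Ov199 and 19 in NP (0.306), and its most abundant product was 18 nt long. MIR1846b, which lies outside the rule for named precursors and was chosen after its values were seen, had 13, 43 and 14 reads (0.454) with an adjusted p of 0.047 by the exact test. That p was 0.096 with exact alignments only.

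A few precursors were seen on 1 side only. MIR1882e had 216 reads in RNAi, 0 in Ov199 and 65 in NP, so it was at least 108-fold higher in RNAi than the 3 reads that a count of 0 in Ov199 allows. The main product of MIR1882e, a 24 nt sequence at bases 113 to 136 of the precursor, had 130, 0 and 17 reads. This is 65.0-fold above 3 reads, with an interval from 52.2. MIR1881 had 20 reads in RNAi, 0 in Ov199 and 15 in NP (10.01-fold above 3 reads, interval from 7.41), and 14 of the 20 aligned exactly, under the minimum. MIR3980a and MIR3980b had 79 and 80 reads in Ov199 and 0 in both RNAi and NP. With 3 reads in place of 0, MIR3980b was 17.8-fold lower in RNAi, and the interval of the miR3980 family reached up to a ratio of 0.0708. The product shared by MIR3980a and MIR3980b had 26 reads in Ov199 alone. Ov199 thus had no read of MIR1882e and MIR1881, which NP and RNAi both had, and was the only library with reads of MIR3980a and MIR3980b.

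For 2 of the precursors called higher, most reads carried a mismatch or gap to the precursor, and whether such reads came from another locus was not tested. MIR5795 had 134 reads in RNAi, 3 in Ov199 and 181 in NP, a ratio of 67.0 (interval 22.5 to 329). Only 1.46% of its reads over the libraries aligned exactly, and 1 exact read each was left in RNAi and Ov199, which ended the call. Its most abundant read, shown to give the mismatch, carries T6G, counted from the 5′ end of the read with the precursor's base first and written in capitals, and had 87 reads in RNAi, 1 in Ov199 and 115 in NP.
MIR5795, read with T6G: agtggGatactgatgtcgaggtcg
MIR5534a had 44 reads in RNAi, 24 in Ov199 and 19 in NP (2.75), of which 20.6% aligned exactly. With exact alignments only, 6 and 8 reads were left with a ratio of 1.11, and the call ended.

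The remaining precursors called higher were MIR7692, MIR2101 and MIR2863c. MIR7692 had 23 reads in RNAi, 6 in Ov199 and 12 in NP (5.75, interval 2.28 to 17.3). Exact alignments left 17 reads in RNAi and 1 in Ov199, a ratio of 25.1, and the call ended because neither reached 20 reads. MIR2101 had 70 reads in RNAi, 51 in Ov199 and 32 in NP (2.06), and the ratio was 1.91 with exact alignments only. MIR2863c, which also lies outside the rule for named precursors and was chosen after its values were seen, had 33, 22 and 15 reads (2.25, interval 1.27 to 4.05). At the minimum itself, MIR1436, MIR1440b and MIR164d were just inside with 20 reads each in Ov199 and 13, 20 and 15 in RNAi. MIR1846c, MIR2921 and MIR394 were just outside with 19 in Ov199 and 5, 6 and 7 in RNAi.

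The wild type was described beside the 2 transgenic lines and entered no test. The NP level lay between those of RNAi and Ov199 for 29 of the 32 called precursors, with ties counted as between. They were 11 of the 14 higher and all 18 lower, where MIR3980a and MIR3980b are ties without a read in NP and RNAi. Called precursors were picked because RNAi and Ov199 lay far apart, so NP can fall between them by that choice. The share over all kept precursors is not given, and the count is a description only. Summed over families, 96 of 264 had 20 reads in either library, and 18 of them were called, 11 higher and 7 lower. These are 6.82% of the 264 and 18.8% of the 96 (11.5% higher and 7.29% lower). The families called higher were miR397, miR398, miR408, miR528, miR399, miR1881, miR1882, miR2101, miR5534, miR5795 and miR7692. Those called lower were miR827, miR530, miR1425, miR1428, miR1883, miR3980 and miR5484. The miR1428 family, with 15 reads in RNAi, 66 in Ov199 and 15 in NP, had a ratio of 0.341.

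**Figure D4:**
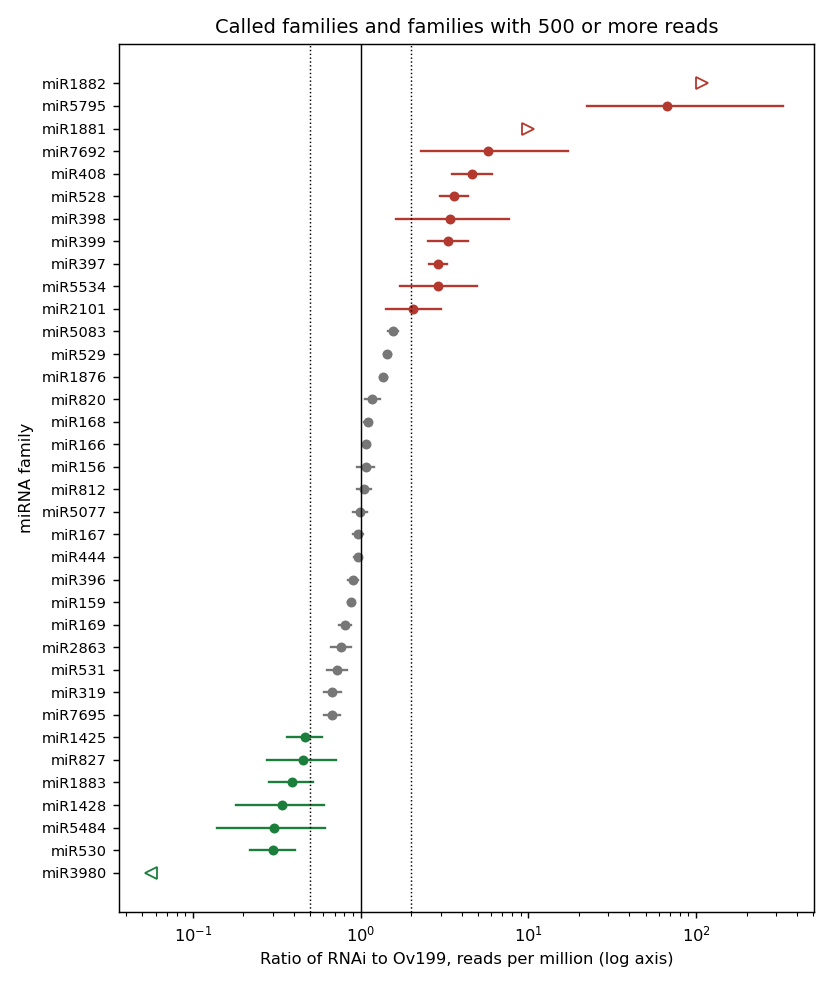
Ratio of RNAi to Ov199 (log axis) of the called families and of all families with 500 or more reads in either library, with bars for the exact 95% interval, a solid line at 1 and dotted lines at 0.5 and 2. Triangles are families at 0 in 1 library, drawn with 3 reads in place of 0. Red families are called higher and green ones lower in RNAi, and the abundant families from miR7695 to miR5083 lie between 0.675 and 1.57, apart from the called miR397 at 2.89.

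Most families with 500 or more reads in either library were within 2-fold, the exception being the called miR397. Of those described next, miR166, miR168, miR159 and miR396 had an adjusted p under 0.05 in the exact test, and miR167 and miR444 did not. miR166, which targets HD-ZIP III transcription factors of leaf polarity and meristems, was the most abundant, with 15755 reads in RNAi, 21846 in Ov199 and 11973 in NP. In normalized counts these are 251180, 232024 and 242658, a ratio of 1.08 (interval 1.06 to 1.11), which was 1.00 when scaled to reads at known precursors and 0.897 when scaled to adapter-trimmed reads. miR168, which targets ARGONAUTE1 (3310, 4521 and 1962 reads in RNAi, Ov199 and NP), had a ratio of 1.10, and 0.910 on the adapter-trimmed scale. miR159, which targets GAMYB-type MYB factors (4899, 8430 and 3578 reads), had a ratio of 0.872. miR396, which targets growth-regulating factors, had 0.904, and miR167, which targets auxin response factors, had 0.969. miR444, a monocot family that targets MADS-box genes related to nitrate signalling, had 2573, 4025 and 1645 reads and a ratio of 0.960 (interval 0.913 to 1.01). None of its 5 kept precursors was called.

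Further families also differed by less than 2-fold with an adjusted p under 0.05 in the exact test. miR529, which targets SPL transcription factors of panicle branching, had 3526 reads in RNAi, 3679 in Ov199 and 1507 in NP, a ratio of 1.44 (interval 1.37 to 1.51), nearly all from MIR529a (1.44). MIR529a levels were 56214 normalized counts in RNAi, 39064 in Ov199 and 30543 in NP. miR1876 had a ratio of 1.37 and miR5083 one of 1.57. miR319, which targets TCP factors, had 390 reads in RNAi, 862 in Ov199 and 340 in NP (0.679), and miR7695 had 432, 961 and 300 (0.675). miR531 had a ratio of 0.725 and miR2863 of 0.766. miR393, which targets the TIR1/AFB auxin receptors, had 198 reads in RNAi, 467 in Ov199 and 151 in NP, a ratio of 0.636 (interval 0.536 to 0.753). In miR319, miR7695 and miR393, Ov199 was above both NP and RNAi. The ratios of miR820, miR812 and miR156 (1.18, 1.04 and 1.07) changed side with the scale or the reads counted. That of miR5077 was 0.988 with all alignments and 1.97 with exact alignments only.

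Lists of families by their best-known targets gave further counts, to be read beside the 14.5% of all 220 precursors called (6.36% higher and 8.18% lower). Members of a list share reads. Among the SPL regulators miR156, miR529 and miR535, 0 of 14 kept precursors were called, with ratios from 0.599 to 1.67, and miR535 had a ratio of 1.59. Also uncalled were all 13 precursors of miR166, the 18 of the auxin list (miR160, miR167, miR390 and miR393), the 3 of miR162 and miR168, and the 8 of miR159 and miR319. The same held for the 17 of the list of miR164, miR171, miR172 and miR396, the 15 of the list of long rice miRNAs and the 32 of the repeat-derived list. Among families with late, high registry numbers, 3 of 23 kept precursors were higher and 1 was lower. Precursors within 2-fold can still have an adjusted p under 0.05, as 9 of the 14 SPL regulators and 9 of the 13 miR166 precursors did, beside 72 of all 220 (32.7%). MIR5150 had 13 reads in RNAi, 12 in Ov199 and 10 in NP, under the minimum, with a ratio of 1.63 (interval 0.684 to 3.90).

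Members of a family did not always move alike. In miR156, which targets SPL factors of the juvenile phase, MIR156a, MIR156b, MIR156c, MIR156e, MIR156g and MIR156i had ratios of 0.599 to 0.695, while MIR156d, MIR156f, MIR156h and MIR156j had 1.03 to 1.08. MIR156b had 95 reads in RNAi, 238 in Ov199 and 33 in NP, and MIR156d had 403, 558 and 136. The products show the split: the canonical one is shared by 10 precursors and had 64 reads in RNAi, 139 in Ov199 and 21 in NP, and the one starting 1 base earlier is shared by MIR156d, MIR156f, MIR156h and MIR156j and had 196, 239 and 71.
miR156, 10 precursors: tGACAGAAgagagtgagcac
miR156, 4 precursors: tTGACAGAagagagtgagcac
The ratios of these 2 products were 0.691 and 1.23, and neither passed the exact test over sequences.

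The same was seen among the products of miR166, which are shown because the family total hides them. The canonical product had 3572 reads in RNAi, 3651 in Ov199 and 2307 in NP, a ratio of 1.47. The product of MIR166c and MIR166j that starts 1 base earlier had 4428, 7189 and 3657 reads (0.925), and the one 2 bases earlier from 5 precursors had 1282, 2728 and 1156 (0.705). These 3 shift the seed by 1 base each and went in different directions. From the 5′ arms, the main product of MIR166b had 390, 292 and 257 reads (2.00, called higher), and 1 of MIR166j had 5, 70 and 28 (0.107, called lower). Another 5′ product of MIR166j, starting 1 base later, had 31, 33 and 27 reads (1.41) and was not called.
miR166, canonical: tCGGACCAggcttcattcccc
miR166, 1 base earlier: tTCGGACCaggcttcattccc
miR166, 2 bases earlier: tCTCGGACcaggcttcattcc
MIR166b, 5′ arm: gGAATGTTgtctggctcgggg
MIR166j, 5′ arm: gAATGACGtccggtctgaaga

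Single sequences were tested for all 3283 exact sequences at known precursors, of which 227 had 20 reads in either library. The calls numbered 32 (0.975% of the 3283 and 14.1% of the 227), with 15 higher (6.61%) and 17 lower (7.49%). Of these sequences, 13 lay at a precursor that was not called itself. One from MIR5794 had 2 reads in RNAi, 40 in Ov199 and 6 in NP (0.075), while the precursor had a ratio of 0.710. One from MIR396e had 2, 26 and 6 reads (0.115). MIR168a held 1 product that was lower, with 11, 49 and 13 reads (0.337), and 1 from its other arm that was higher, with 26, 9 and 5 (4.34). The canonical miR393 product had 34, 105 and 32 reads (0.486).
MIR5794: aTATGGAAatcaaaaggcttg
MIR396e: tTCCACAGgctttcttgaactg
MIR168a, lower: tCGCTTGGtgcagatcggga
MIR168a, higher: aTCCCGCCttgcaccaagtgaat
MIR393a and MIR393b: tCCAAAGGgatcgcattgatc

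MIR529a also had a minor product that was called, from the arm opposite its main one. The main product had 2842 reads in RNAi, 2974 in Ov199 and 1227 in NP, and the minor one had 117, 65 and 43 (2.70).
MIR529a, main: aGAAGAGAgagagtacagcct
MIR529a, minor: gCTGTACCctctctcttcttc

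The balance of the 2 arms was tested within 123 precursors that had enough reads, a measure that does not depend on the scale between libraries. A read counted as 5′ arm where it began before the middle of the stretch covered by reads, and otherwise as 3′ arm. The position of the hairpin loop was not used, so some reads can be given to the wrong arm. Reads that aligned at several precursors were counted at each, so a share can set a precursor's own reads against reads shared with others. The 3′ arm reads of MIR166b (6441 in RNAi), for example, include products shared with other miR166 precursors. The balance differed in 13 (10.6%), and the 5′ share was higher in RNAi in 4 of them. In MIR408, the 5′ arm gave 6 reads and the 3′ arm 215 in RNAi, against 19 and 53 in Ov199 and 2 and 30 in NP. The 5′ share was 2.71% in RNAi (Wilson 95% interval 1.25 to 5.80), 26.4% in Ov199 (17.6 to 37.6) and 6.25% in NP, with an adjusted p of 1.12e-06 by Fisher's exact test. The 3′ arm of MIR408, which gives both products shown above, thus had more reads in RNAi and the 5′ arm fewer. In MIR528, the 5′ share was 95.7% in RNAi, 85.1% in Ov199 and 80.9% in NP. Its 3′ arm had 16 reads in RNAi and 23 in Ov199. The 5′ share of MIR166b was 7.46% in RNAi, 4.26% in Ov199 and 6.88% in NP, and that of MIR1850 was 82.7%, 97.1% and 87.4%.

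The read lengths differed between the libraries. The 21 nt class, the usual size of plant miRNAs, held 41.5% of the aligned reads in RNAi, 39.2% in Ov199 and 35.7% in NP. Reads of 15 to 19 nt made up 19.5%, 26.03% and 25.4%, and those of 24 nt 13.7%, 10.8% and 13.2%. Reads of 25 nt or more made up 3.58% in RNAi, 2.26% in Ov199 and 5.11% in NP. At known precursors alone, the 15 to 19 nt share was 9.41% in RNAi and 10.9% in Ov199. MIR5083 was part of the long class. It had 1846 reads in RNAi, 1770 in Ov199 and 2300 in NP. Its main 21 nt product had 469, 562 and 283 reads (1.25), while the products of 26 and 27 nt that end at the same base or 1 later had 152, 63 and 182 (3.62) and 25, 7 and 57 (5.36). The longer the product shown, the larger was the ratio. The share of long reads in the libraries moved with these products, and its part in the ratios was not tested.
MIR5083, 21 nt: cCAATGGAtccttctgagcct
MIR5083, 26 nt: aGAAACCAatggatccttctgagcct
MIR5083, 27 nt: aGAAACCAatggatccttctgagcctg

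**Figure D5:**
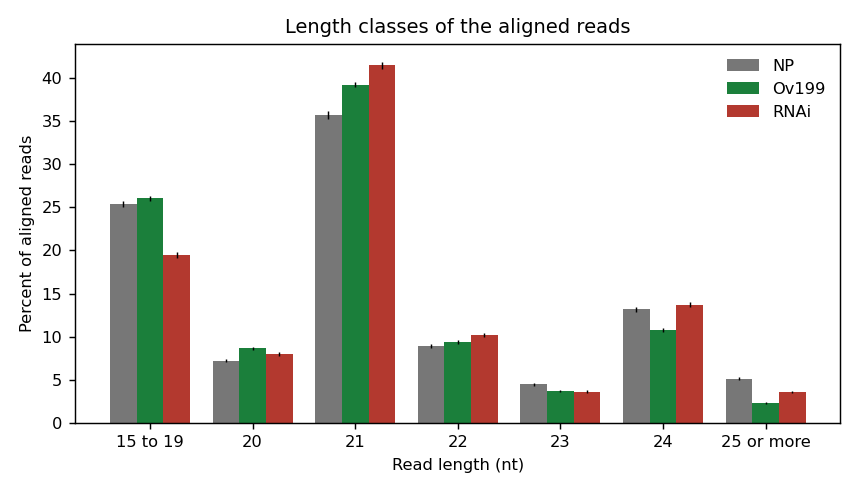
Share of all aligned reads in each length class (percent, with the length in nt on the x axis) in the NP (grey), Ov199 (green) and RNAi (red) libraries, with Wilson 95% intervals as bars. RNAi has the lowest share of 15 to 19 nt reads (19.5%) and the highest of 21 nt reads (41.5%), and Ov199 the lowest of 24 nt (10.8%) and of longer reads (2.26%).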

How the data were processed

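Total RNA of leaves, flowers and stems of blooming NP, Ov199 and RNAi plants was pooled into 1 small RNA library per line. After trimming of adapters and removal of poor reads, the authors merged identical reads and placed them on known precursors and on those they predicted with miRDeep2. They deposited the raw count of each distinct sequence at each place, allowing 1 mismatch, insertion or deletion. The settings of the aligner are not given in the sources used here. Sequences that aligned at several known precursors (45.2% to 49.2% of the known reads) were counted at each. The RNAi and Ov199 libraries, placed in groups by their labels, were compared by Fisher's exact test on these counts as described above, with conditional 95% intervals for ratios and Wilson intervals for shares. Reads carry no molecular identifiers, so intervals and floors cover counting error only. The members and lists were chosen with earlier results of these data known. Named were, in each direction, the 12 called precursors with the largest ratio, every called family, families with 500 reads, list members and the miRNAs the study singles out. Alternatives were 5 other scales (including edgeR's TMM factors and DESeq2's size factors over precursor counts), exact alignments, reads of 20 to 24 nt, no single-read sequences, divided reads, other minimums, folds and pseudocounts. The procedure was tested on simulated data. Versions were 1.17.1 (scipy), 2.4.6 (numpy), 2.3.3 (pandas) and 3.10.9 (matplotlib) under Python 3.11.15, and 1.42.0 (DESeq2) and 4.0.16 (edgeR) under R 4.3.3.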

Additional observations from a re-analysis of the deposited data

Results flagged for a closer look

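Precursors that the authors predicted were not compared singly above, although their reads are part of the totals and length shares. Of the predicted precursors called between RNAi and Ov199, the 3 given here had a level in the library where they were higher, Ov199, whose exact 95% interval over the control library NP lay wholly above 2-fold. Other predicted precursors were also higher in Ov199 than in NP and RNAi by a smaller factor. The predicted precursor 6690 of chromosome 12 had 99 reads in Ov199 and 0 in NP and RNAi, number 41696 of chromosome 1 had 49 in Ov199, 4 in NP and 12 in RNAi, and number 29780 of chromosome 2 had 41 in Ov199, 3 in NP and 2 in RNAi. Over all 89 predicted precursors with 20 reads in either transgenic library, 9 were higher and 10 lower in RNAi, with a median ratio of 0.938.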

How the results depend on the processing

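No paired analysis was possible because each line has 1 library, and for the same reason no replicate could be left out. Under 9 alternatives, 557 ratios of the 62 named precursors and families were sorted by direction and by the threshold of the adjusted p alone. Of these, 505 kept both, 28 were no longer past the threshold, 10 came past it and 14 changed side. The fold and the minimum of reads did not enter, so these are not counts of calls kept. With exact alignments, the calls of MIR1425 (ratio 0.532) and MIR2101 (1.91) ended on the fold while their adjusted p still passed. Relative to the aligned reads, log2 ratios shifted by -0.11 when scaled to known reads, -0.27 to adapter-trimmed reads, -0.04 with TMM, -0.09 with DESeq2 and 0.04 without miR166. The precursors called were 59 with a minimum of 10 reads, 21 with 50 and 63 with none, and those higher were 39, 8 and 43, against 8 with exact alignments and 9 past 3-fold. A minimum equal in normalized counts (20 reads of Ov199), added after seeing the data, gave 37 calls, 19 higher and 18 lower. Called families were 28 with no minimum and 11 past 3-fold. Families higher were 6 with exact alignments, 19 with a minimum of 10, 7 with 50 and 20 with none, and those lower were 3 past 3-fold. Sequences higher were 23 with a minimum of 10. With exact alignments, the share at predicted precursors was 16.9% in RNAi and 22.2% in Ov199, the 24 nt share in RNAi 13.4%, and the share of 25 nt or longer 2.14% and 1.5%. Among known reads, 24 nt made up 13.0% and 10.5%, and 25 nt or longer 3.18% and 1.90%. Ratios that changed side were those of miR5077 (1.01 without miR166, 1.97 with exact alignments, 1.01 without single-read sequences) and miR812 (0.964 by known reads, 0.864 by adapter-trimmed reads, 0.980 by DESeq2, 0.971 without single-read sequences). Others were miR156 (0.989 by known reads, 0.887 by adapter-trimmed reads, 0.999 in 20 to 24 nt), miR166 (1.00 by known and 0.897 by adapter-trimmed reads), and miR168 (0.910) and miR820 (0.975) by adapter-trimmed reads. The cause was not tested. Depth limits precursors under 20 reads, where 1 read moves a level by 10.6 to 15.9 normalized counts.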
